A study of Mus musculus with 20 samples.

Results

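The VEGF ligands and receptors were followed as 9 named genes of the 52783 in the deposited gene table, and all 9 were found in it. The 5 ligands were Vegfa (ENSMUSG00000023951), Vegfb (ENSMUSG00000024962), Vegfc (ENSMUSG00000031520), Vegfd (ENSMUSG00000031380) and Pgf (ENSMUSG00000004791). The 4 receptors were Flt1 (ENSMUSG00000029648), Kdr (ENSMUSG00000062960), Flt4 (ENSMUSG00000020357) and Nrp1 (ENSMUSG00000025810). The members were taken by name, as the ligands and receptors of the family, with no threshold on a measured value.

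The RNA came from tumours of the 66cl4 line, which metastasises, and the 67NR line, which does not. Both are mouse mammary carcinoma lines of the 4T1 family, grown in an inguinal fat pad of the mammary gland in BALB/cJ females aged 8 to 12 weeks and collected 21 to 26 days after injection. Each of 10 tumours, 5 per line, was dissociated and its viable cells were sorted into CD45+ (immune) and CD45- (non-immune) cells, giving 20 RNA-seq libraries in 4 groups of 5. Every tumour model here is a single cell line, no healthy mammary tissue was analysed here, and the CD45- gate pools tumour cells with fibroblasts, pericytes and endothelium.

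Vascular endothelial growth factors drive the growth and permeability of blood and lymphatic vessels. Vegfa acts through the receptor tyrosine kinase Kdr (VEGFR2) on blood vessel endothelium, while Flt1 (VEGFR1) binds Vegfa tightly but signals weakly and is also the receptor for Vegfb and placental growth factor (Pgf). Vegfc and Vegfd, once cleaved, act on Flt4 (VEGFR3), the receptor best known from lymphatic endothelium, and Nrp1 is a co-receptor without a kinase of its own. Vegfa is a classical target of hypoxia-inducible factors in tumours, and myeloid cells are a well-known source of it.

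The sequence just upstream of the start site is shown for the ligands and receptors on which the comparisons turn. These are Vegfa and Vegfc, whose tumour differences ran in unlike directions in CD45- cells, and Flt1 and Kdr, which varied together between libraries. Each is the 250 bases before the most upstream start site in RefSeq (build GRCm38.p6), read 5′ to 3′ on the strand of the gene. Vegfa lay at chr17:46032378-46032627 (minus strand), Vegfc at chr8:54077282-54077531 (plus strand), Flt1 at chr5:147726012-147726261 (minus strand) and Kdr at chr5:75978456-75978705 (minus strand). Capitals mark matches, on either strand, to any of 6 short motifs named after the sequences.
Vegfa: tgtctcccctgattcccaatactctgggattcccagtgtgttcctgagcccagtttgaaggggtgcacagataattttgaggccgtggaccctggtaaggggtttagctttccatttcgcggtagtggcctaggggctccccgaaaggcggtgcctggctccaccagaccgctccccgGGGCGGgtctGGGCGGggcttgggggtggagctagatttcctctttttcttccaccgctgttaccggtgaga
Vegfc: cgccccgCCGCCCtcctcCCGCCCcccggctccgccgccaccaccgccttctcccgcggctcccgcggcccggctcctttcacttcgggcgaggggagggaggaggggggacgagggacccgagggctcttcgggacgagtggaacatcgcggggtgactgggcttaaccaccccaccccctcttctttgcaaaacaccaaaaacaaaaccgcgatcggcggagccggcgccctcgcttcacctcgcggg
Flt1: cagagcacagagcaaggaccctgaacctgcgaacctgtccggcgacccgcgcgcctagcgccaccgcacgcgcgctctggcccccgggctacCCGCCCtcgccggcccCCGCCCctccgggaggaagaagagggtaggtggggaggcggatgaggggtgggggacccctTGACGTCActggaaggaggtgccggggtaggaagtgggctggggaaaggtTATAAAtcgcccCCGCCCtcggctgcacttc
Kdr: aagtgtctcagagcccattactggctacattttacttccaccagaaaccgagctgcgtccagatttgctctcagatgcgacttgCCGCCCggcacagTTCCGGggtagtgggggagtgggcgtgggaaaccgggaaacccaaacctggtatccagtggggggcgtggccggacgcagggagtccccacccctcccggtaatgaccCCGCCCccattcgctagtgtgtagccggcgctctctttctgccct

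The motifs searched were the core of the hypoxia response element (ACGTG), the cyclic AMP response element (TGACGTCA), the GC box (GGGCGG), the TATA box (TATAAA), an ETS core (CCGGAA) and the AP-1 site (TGAGTCA). GC boxes were present in 8 of the 9 genes, Vegfd being the exception, and in 32.74% of the 32851 RefSeq promoter windows of the same length. In Vegfa they began 72 and 62 bases before the start site. Flt1 held a cyclic AMP response element 81 bases and a TATA box 31 bases before its start, motifs found in 1.546% and 12.37% of all windows. Kdr had no TATA box and held an ETS core 153 bases before its start (12.03% of all windows). The letters ACGTG occurred in 0 of the 9 windows, against 16.57% of all windows, and those of the AP-1 site in 0 of 9, against 4.463%. The other form of the hypoxia response core, GCGTG, was not searched. It can be read in the Kdr and Vegfb windows and, on the opposite strand, in those of Flt1, Vegfb, Pgf and Nrp1. No matches overlapped in the 4 windows printed. These are matches of letters within 250 bases, not sites shown to be used.

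Total estimated counts were 12960000 to 28080314 per library. Levels of a gene are given as normalised counts (estimated counts divided by DESeq2 size factors over the 20 libraries), and the levels of different genes are ranked only in TPM, the abundance of transcripts relative to all transcripts of a library after division by their length. Fold changes come from edgeR's quasi-likelihood test on the log2 scale, each with its standard error (SE), and p-values were adjusted over all genes tested. Calls required an adjusted p below 0.05 together with a log2 fold change beyond 1 in size (for interactions, the adjusted p alone). For 66cl4 animals 5 and 6 the title and the recorded cell type name opposite gates. These libraries were grouped by title, and each result was repeated without them. In bulk samples, fewer cells of a type and less RNA per cell cannot be told apart.

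Epithelial markers (6 genes) summed to between 6057 and 6844 normalised counts in CD45- cells of 66cl4, against 124.5 to 390.6 for 67NR. Macrophage markers (8 genes) summed to at least 54500 in each CD45+ library and at most 4600 in each CD45- library. Mast cell markers (5 genes), in contrast, summed to 438.7 to 14391 in 67NR CD45- cells, against 18.58 to 65.88 in the same gate of 66cl4. In the CD45+ gate they summed to 14761 to 21066 for 67NR and 1096 to 3135 for 66cl4.

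Vegfa differed between the tumours in opposite directions in the 2 gates. In 66cl4 CD45+ cells its level was 4014, 2468, 6343, 3529 and 2012 normalised counts in animals 3 to 7, and in 67NR CD45+ cells it was 1658, 1158, 843.6, 605.1 and 300.4 in animals 1, 4, 5, 6 and 7. Every 66cl4 library therefore lay above every 67NR library, with a mean 4.02-fold higher. In CD45- cells the order was turned: 66cl4 libraries had 934.4, 1052, 1185, 1382 and 766.6 normalised counts, and 67NR libraries had 2632, 2181, 2822, 2276 and 2156. These groups did not overlap either, and the mean was 2.27-fold higher in 67NR tumours.

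The tumour effect on Vegfa was a log2 fold change (66cl4 over 67NR) of 2.00 (SE 0.460, adjusted p = 0.0116) in CD45+ cells and −1.15 (SE 0.144, adjusted p = 8.17e-06) in CD45- cells. The difference between these effects, tested as an interaction over the 20 libraries, was 3.18 on the log2 scale (SE 0.485, adjusted p = 3.57e-05). Without 66cl4 animals 5 and 6 the CD45+ fold change was 1.62 and its adjusted p was 0.0541, so that call depended on these animals, whereas it was kept when any single library was left out.

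Seen within a tumour, Vegfa was the ligand whose main gate changed with the line. In 66cl4 tumours the CD45+ library exceeded the CD45- library of the same animal in 5 of 5 animals, by 2.35-fold to 5.35-fold (log2 fold change 1.75, SE 0.286, adjusted p = 0.000153). In 67NR tumours it was lower in 5 of 5 animals, at 0.139 to 0.630 of the CD45- level (log2 fold change −1.39, SE 0.366, adjusted p = 0.0054). Ranked by mean, the groups ran from 66cl4 CD45+ through 67NR CD45- and 66cl4 CD45- to 67NR CD45+ cells. The first and second of these overlapped in their libraries, as did the last 2.

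**Figure D1:**
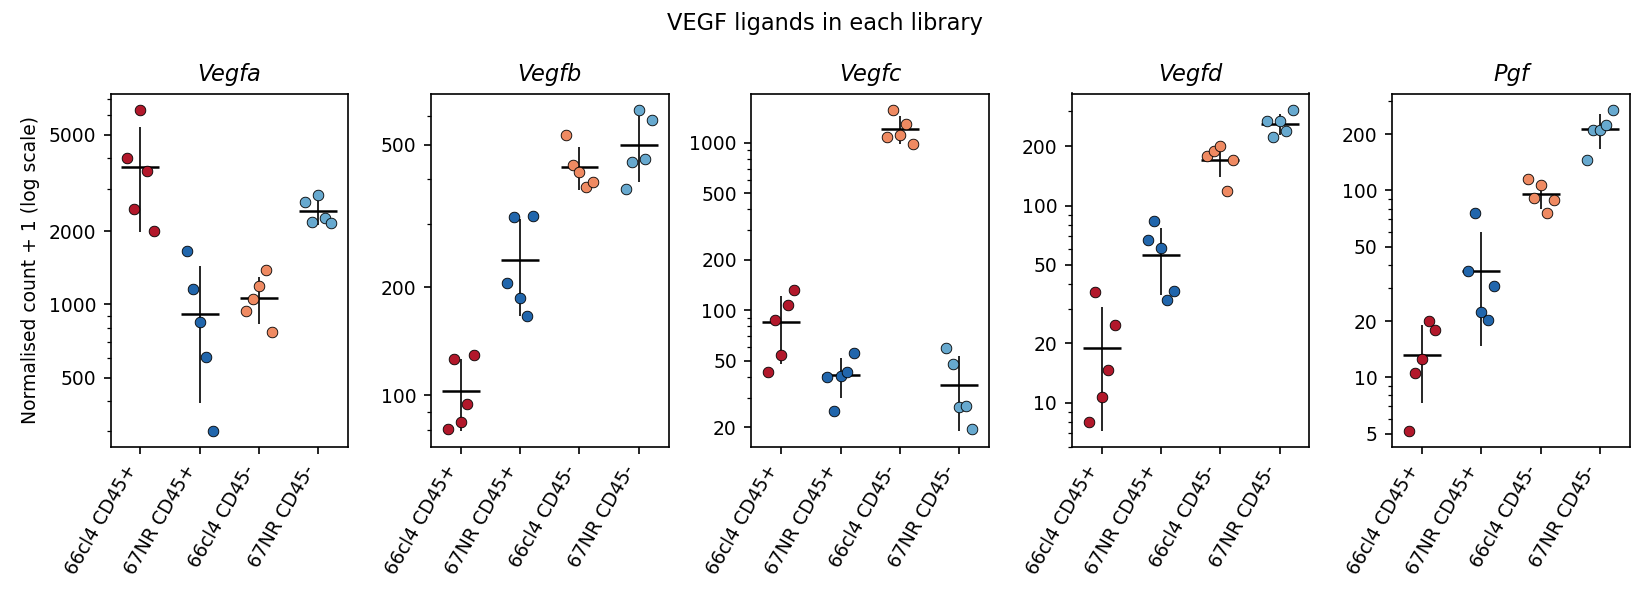
Level of each VEGF ligand (normalised count plus 1, log scale) in the 20 libraries. Points are libraries in order of animal number, horizontal bars are group means and vertical bars are 1 SD (n = 5 per group). Vegfa is higher in 66cl4 than 67NR tumours among CD45+ cells and lower among CD45- cells, and Vegfc stands out in 66cl4 CD45- cells, at 982.2 to 1575 normalised counts.

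Genes of the hypoxia response and markers of neutrophils moved with Vegfa in CD45+ cells. Between the CD45+ groups 5.01% of all genes were called higher in 66cl4 and 6.82% lower. Of 12 hypoxia response genes, 8 were called higher and 0 lower in 66cl4 CD45+ cells (median log2 fold change 1.34, against 0.01 over all genes tested). Among them were Ankrd37 (log2 fold change 2.86), the pyruvate dehydrogenase kinase Pdk1 (2.03), the glucose transporter Slc2a1 (1.57) and the glycolytic enzyme Pgk1 (1.42). The 12 genes summed to between 38664 and 70630 normalised counts in 66cl4 CD45+ libraries, and to between 18309 and 29504 in those of 67NR. Neutrophil markers were called higher for 5 of 7 genes and lower for 0, and summed to between 44191 and 125311 in the former and between 7185 and 52320 in the latter. None of the 7 was at 0 in either group. Their part in the Vegfa difference was not tested.

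Among 8 genes that make up or control hypoxia-inducible factors, 2 were called higher between CD45+ groups (5.01% of all genes were) and, between CD45- groups, 2 higher and 1 lower (13.2% and 18.9% of all genes). Of these, Epas1 (HIF-2α; log2 fold change 1.70, SE 0.179, adjusted p = 0.000129) and Egln3, a prolyl hydroxylase that marks HIF for degradation (1.70, SE 0.543, adjusted p = 0.0464), were called higher in 66cl4 CD45+ cells and 0 were called lower. Egln3 was called in 7 of 17 alternatives and Epas1 in 17 of 17. Hif1a reached 14887 to 25044 normalised counts there against 6798 to 13030 in 67NR CD45+ cells, with a log2 fold change of 0.98 (SE 0.213, adjusted p = 0.00712) just short of the threshold on size. In CD45- cells Epas1 was called lower in 66cl4 tumours (−2.61, SE 0.441, adjusted p = 0.000389), while the HIF partner Arnt (1.13) and the HIF inhibitor Hif1an (1.90) were called higher. There, 3 of 12 hypoxia response genes were called higher (Car9, Bnip3 and Pdk1) and 1, Adm, lower, so Vegfa and the hypoxia list did not move in the same direction in CD45- cells (median log2 fold change of the list 0.77, of all genes −0.01).

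Vegfc was high in 1 group only. In 66cl4 CD45- cells it was counted at 1086, 1575, 1110, 1296 and 982.2 normalised counts in animals 3 to 7, against 58.79, 46.51, 25.46, 25.78 and 18.41 in 67NR CD45- animals 1, 4, 5, 6 and 7. The lowest 66cl4 library was thus far above the highest 67NR library, and the means differed 34.6-fold (log2 fold change 5.13, SE 0.275, adjusted p = 6.97e-09). This was the largest tumour difference among the 9 genes in either gate.

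In CD45+ cells the levels of Vegfc were 41.73, 86, 53.03, 106.3 and 130.2 normalised counts in 66cl4 and 39.02, 24.18, 39.64, 41.94 and 54.53 in 67NR tumours, and the groups overlapped. The fold change passed both thresholds (log2 1.09, SE 0.327, adjusted p = 0.0325) but was called in 9 of 17 alternative analyses, whose adjusted p ran from 0.0111 to 0.0815. The tumour effect was smaller in CD45+ than in CD45- cells by 4.03 on the log2 scale (interaction −4.03, SE 0.452, adjusted p = 8.23e-07). Within 66cl4 tumours, CD45+ libraries held 6.90% of the CD45- level on average. The 8 fibroblast markers ranged from 4.03 to 122.4% (median 7.75%) and the 6 epithelial markers from 5.09 to 1893% (median 63.2%). These ranges are too wide to place Vegfc in a cell type, and its source was not tested. Within 67NR tumours the gates did not differ measurably (log2 fold change 0.18, SE 0.336, adjusted p = 0.663).

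Of the genes around Vegfc processing and binding, Ccbe1, which promotes cleavage of Vegfc, was called lower in 66cl4 cells of both gates (log2 fold change −1.68, SE 0.0968, adjusted p = 2.65e-09 in CD45- cells and −3.04, SE 0.589, adjusted p = 0.00499 in CD45+ cells). Nrp2, the co-receptor that binds Vegfc, was called higher in 66cl4 CD45- cells (1.32, SE 0.0841, adjusted p = 7.57e-09), with 6482 to 7450 normalised counts against 2446 to 2993. Over this list of 8 co-receptors, processing and release factors, 7 were tested in CD45- cells and 1 rose while 4 fell (median log2 fold change −1.40). In that gate 13.2% of all genes were called higher and 18.9% lower. The 4 that fell were Ccbe1, the heparanase Hpse and the heparan sulphatases Sulf1 and Sulf2. Hpse had 4 to 20 counts per 66cl4 CD45- library and passed the filter on low counts through 67NR, so it could only be called lower. Hpse in CD45- cells was at 1.15% (66cl4) and 3.41% (67NR) of its CD45+ level, and leukocyte genes moved with it, with Ptprc (CD45) and 4 of 8 macrophage markers called lower in 66cl4 CD45- cells. Their part in the Hpse difference was not tested. In CD45+ cells 6 were tested, of which 0 rose and 2, Ccbe1 and Hspg2, fell, against 5.01% and 6.82% of all genes.

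Vegfb, which acts through Flt1, was mainly a transcript of CD45- cells. Its level in CD45- cells was 380.3 to 532.2 normalised counts (median 417.9) for 66cl4, overlapping the 373.8 to 625.2 (median 454.7) for 67NR (log2 fold change −0.17, SE 0.144, adjusted p = 0.305). In CD45+ cells it was 79.28, 125.2, 82.92, 93.64 and 128.5 in 66cl4 and 204.5, 313.3, 186, 165.4 and 314.8 in 67NR tumours. All 67NR libraries lay above all 66cl4 libraries, 2.32-fold on average (log2 fold change −1.19, SE 0.228, adjusted p = 0.00347). This tumour effect differed between the gates (interaction −1.02, SE 0.283, adjusted p = 0.0069). Vegfb and Vegfa thus differed in opposite directions between the CD45+ cells of the 2 tumours.

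Vegfd, the other ligand of Flt4, and Pgf, a ligand of Flt1, were low in CD45+ cells and higher in CD45- cells of both tumours. Vegfd was 116.9 to 199.8 normalised counts in CD45- cells of 66cl4, below the 221.3 to 305.8 of 67NR. These ranges did not overlap, yet the log2 fold change of −0.57 (SE 0.147, adjusted p = 0.00331) was short of the threshold on size. Pgf in CD45- cells was 114.1, 90.4, 106.6, 74.36 and 87.84 in 66cl4 and 143.9, 210.1, 210.7, 223.4 and 270 in 67NR tumours, without overlap and 2.24-fold higher in the latter (log2 fold change −1.13, SE 0.171, adjusted p = 4.59e-05).

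In CD45+ cells both were called lower in 66cl4 tumours, Vegfd with a log2 fold change of −1.59 (SE 0.445, adjusted p = 0.0242) and Pgf with −1.53 (SE 0.464, adjusted p = 0.0344). Vegfd was called in 12 and Pgf in 11 of 17 alternatives, and the 66cl4 libraries held 5 to 37 counts of Vegfd and 3 to 20 of Pgf. Both passed the filter on low counts through the 67NR libraries, so a call of either could only be lower. CD45+ libraries held 10.5% (66cl4) and 21.3% (67NR) of the CD45- level of Vegfd, and 12.9% and 17.1% of that of Pgf. Fibroblast markers, measured in the same way, had medians of 7.75% and 10.98%, and were at 182.2 to 1398 summed normalised counts in 66cl4 against 899.2 to 3761 in 67NR CD45+ cells. They were called lower for 4 of 8 genes in 66cl4 CD45+ cells, where 6.82% of all genes were. The part of fibroblasts in the ligand counts of the CD45+ gate was not tested.

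**Figure D2:**
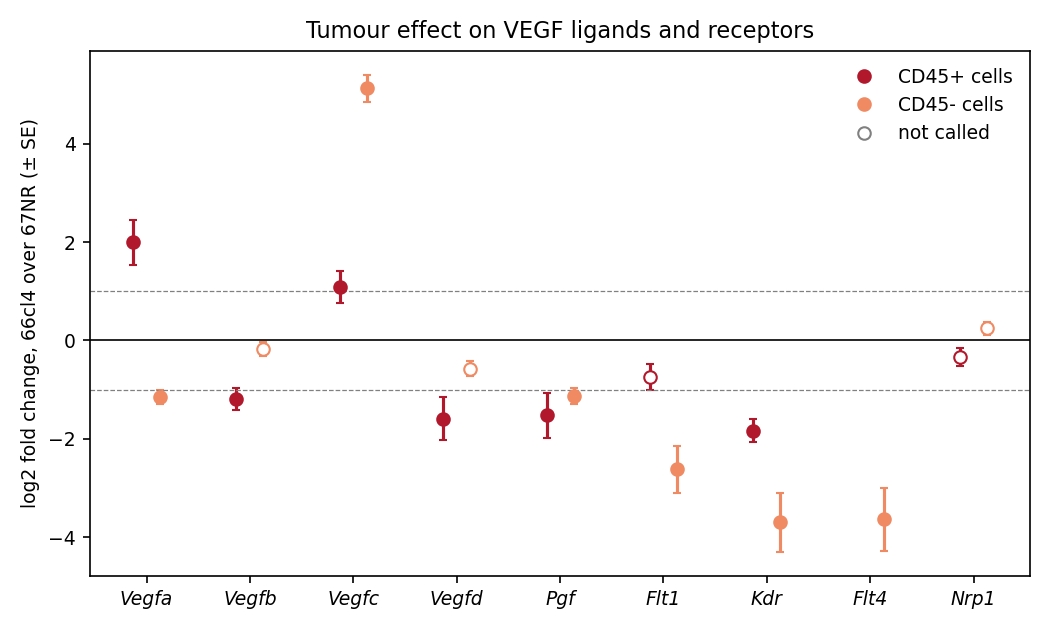
Log2 fold change (66cl4 over 67NR) of the 9 genes in CD45+ and CD45- cells, with 1 SE. Filled points passed both thresholds, open points did not, and dashed lines mark the threshold of 1 on size. Vegfa sits at 2.00 in CD45+ and −1.15 in CD45- cells, Vegfc at 5.13 in CD45- cells, and Flt4 has no point in CD45+ cells because its counts were too low to be tested.

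The calls between tumours can be counted over the family. In CD45+ cells all 5 ligands passed the filter on low counts, 2 (Vegfa and Vegfc) were called higher and 3 (Vegfb, Vegfd and Pgf) lower in 66cl4 tumours. Vegfd and Pgf passed it through the 67NR libraries, so their calls could only be lower. With the receptors, 6 of the 8 genes tested were called, 2 higher and 4 lower, where over all genes 11.8% were called, 5.01% higher and 6.82% lower. That count fell to 2 without 66cl4 animals 5 and 6 and to 3 without the 67NR CD45+ library of animal 4, the library with the highest Vegfd and Pgf of its group. In CD45- cells 6 of the 9 genes were called, 1 higher (Vegfc) and 5 lower (Vegfa, Pgf, Flt1, Kdr and Flt4), against 32.2% of all genes, 13.2% higher and 18.9% lower. Kdr and Flt4 passed the filter through 67NR there, so their calls could only be lower.

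The mixture of ligands was compared in TPM, dividing by the length of the longest transcript of each gene. In 66cl4 CD45+ cells Vegfa made up 77.1 to 95% of the summed ligand TPM (mean 87.2%), and in 67NR CD45+ cells 22.5 to 68.1% (mean 49.3%). In CD45- cells the shares were 21.1 to 30.4% (mean 24.2%) for 66cl4, against 45.7 to 59.7% (mean 52.7%) for 67NR. The shares did not overlap between tumours in either gate (two-sided exact permutation test over 5 against 5 libraries, p = 0.00794 in each, the smallest this design allows, and adjusted p = 0.00952 over 6 ratio tests).

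In 66cl4 CD45- cells the leading ligand was instead Vegfc, with 40.1 to 60.7 TPM, followed by Vegfb (26.4 to 39.8 TPM) and Vegfa (22.2 to 35.6 TPM), which overlapped. In 67NR CD45- cells the order was Vegfa (57.9 to 67.5 TPM), Vegfb (24.4 to 42.3 TPM), Vegfd (10.8 to 13.8 TPM), Pgf (5.77 to 12.03 TPM) and, last, Vegfc (0.697 to 2.00 TPM). Vegfd and Pgf overlapped there. The summed ligand level was nearly the same in the CD45- cells of both tumours, 121.6 TPM ± 11.2 (SD, n = 5) in 66cl4 and 121.6 TPM ± 8.64 in 67NR, while its makeup differed. In CD45+ cells the sum was 112.4 TPM ± 40.6 in 66cl4 and 46.4 TPM ± 11.5 in 67NR tumours. With the median transcript length in place of the longest, Vegfa stood above Vegfb in 66cl4 CD45- cells (70.2 against 21.6 TPM) and Vegfc above Vegfb in 66cl4 CD45+ cells (8.29 against 4.89 TPM), so the order of these pairs rests on the length used.

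**Figure D3:**
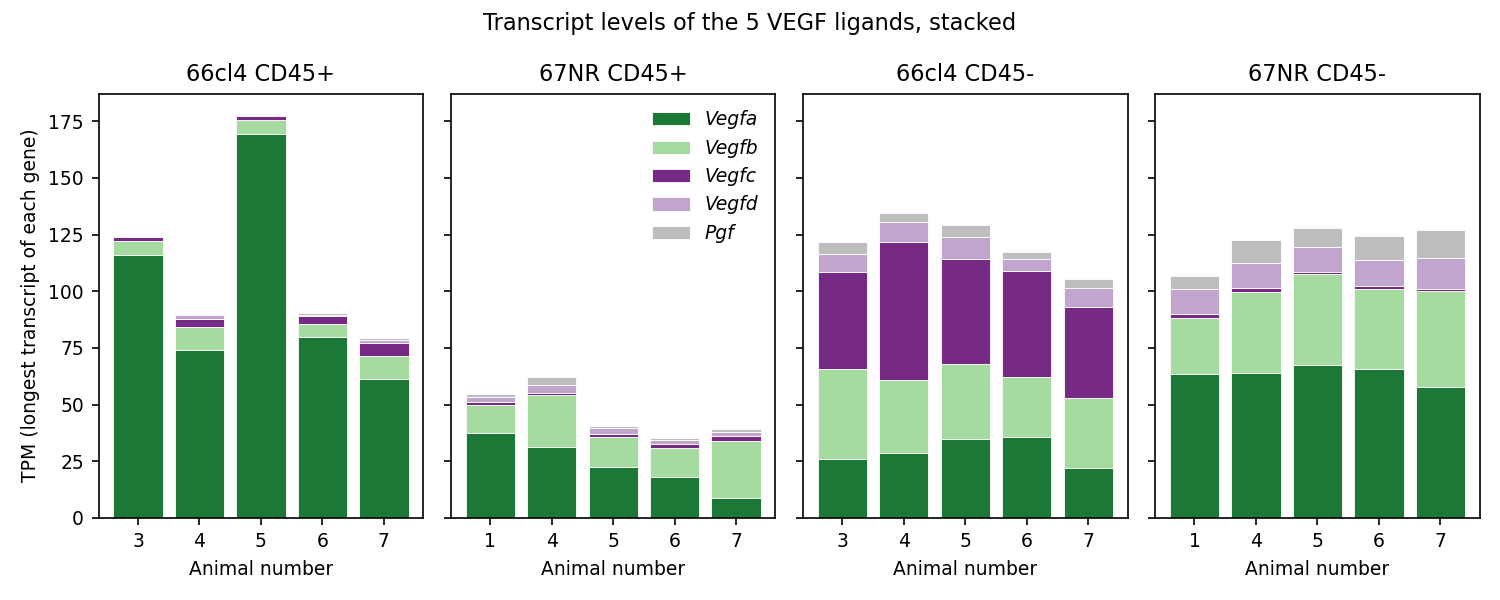
Stacked TPM of the 5 ligands in each library, by animal number. Vegfa takes 77.1 to 95% of the bars of 66cl4 CD45+ cells, and Vegfc is a large part of the bars in 66cl4 CD45- cells alone, with 40.1 to 60.7 TPM.

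Among the receptors, Flt1, Kdr and Flt4 were higher in 67NR than in 66cl4 CD45- cells, and Nrp1 was not called between tumours in either gate. Kdr, the main signalling receptor of Vegfa, was counted at 5.31, 18.1, 14.98, 5.31 and 29.95 normalised counts in 66cl4 CD45- animals 3 to 7 and at 300.1, 408.1, 105.4, 123.4 and 78.8 in 67NR CD45- animals 1, 4, 5, 6 and 7. The groups did not overlap, and within 67NR tumours animals 1 and 4 stood well above the others. The means differed 13.8-fold (log2 fold change −3.70, SE 0.602, adjusted p = 0.00028).

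Flt1, which binds Vegfa, Vegfb and Pgf, was at 34.5, 56.7, 71.6, 30.8 and 64.9 normalised counts in 66cl4 and at 475.6, 627.2, 182.6, 260.9 and 108.4 in 67NR CD45- cells. Again the groups did not overlap and 67NR animals 1 and 4 were highest, with means 6.40-fold apart (log2 fold change −2.62, SE 0.484, adjusted p = 0.000725). Flt4, the receptor of Vegfc and Vegfd, held 0 to 10 counts per 66cl4 library, against 13 to 159 per 67NR library, in CD45- cells (log2 fold change −3.64, SE 0.642, adjusted p = 0.000256). Flt4 therefore passed the filter on low counts through the 67NR libraries. The CD45- cells with the highest Vegfc thus had Flt4 near the lower end of detection.

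**Figure D4:**
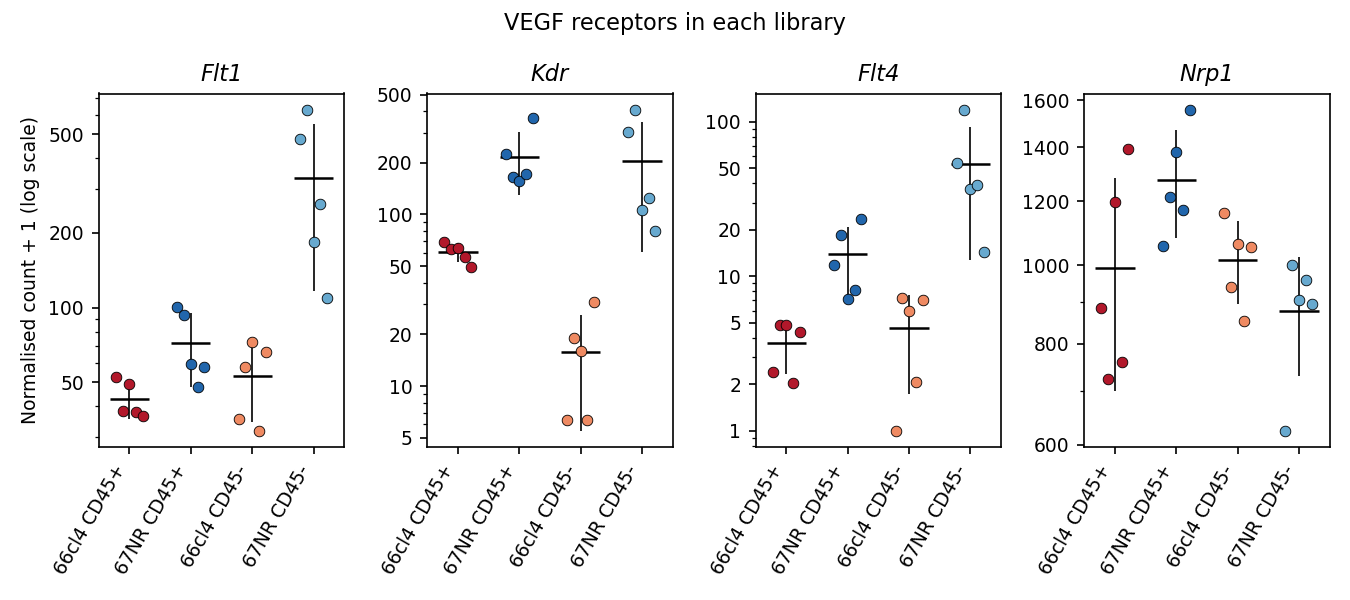
Level of each VEGF receptor (normalised count plus 1, log scale) in the 20 libraries, drawn as for the ligands, with means and 1 SD (n = 5 per group). Kdr in CD45- cells is 5.31 to 29.95 for 66cl4, below the 78.8 to 408.1 of 67NR, Flt4 is lowest in the 66cl4 groups, and Nrp1 spans only 623 to 1557 normalised counts over all libraries.

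The 3 receptor kinases moved with endothelial markers in CD45- cells. Between the CD45- groups 18.9% of all genes were called lower in 66cl4 and 13.2% higher. Of the 12 markers, 11 were called lower in 66cl4 and 0 higher (median log2 fold change −3.23, and −3.13 over the 4 receptors). The exception was Cdh5 (VE-cadherin), at 444 to 775.6 normalised counts for 66cl4 against 416.2 to 1635 for 67NR (log2 fold change −0.65, SE 0.316, adjusted p = 0.0942), although other defining markers were near 0 in 66cl4 CD45- cells. Cldn5, Egfl7, Robo4 and Sox17 had at most 15 counts in any of these libraries and Tal1 at most 3. Tal1, and Kdr with 4 to 30 counts per 66cl4 library, passed the filter on low counts through 67NR alone. A call of either could only be lower, and the folds of the other low markers rest on few 66cl4 counts. Only 6 of the 12 markers had enough counts to be tested between the gates of 66cl4 tumours. The rest also reached the present test through 67NR, so the count of 11 lower calls was in part set by the filter. The sum of the 12 was between 700 and 1305 normalised counts in 66cl4 libraries, and between 1511 and 5821 in 67NR libraries. Without Cdh5, Pecam1, Eng and Tal1, a choice made after their levels were seen, the other 8 summed to 54.2 to 196.6 and 471.5 to 2044. Both sums were highest in 67NR animals 1 and 4, as were the receptors. Mast cell markers had the opposite order, with 438.7 and 559.7 summed normalised counts in these animals and 4002 to 14391 in the other 67NR CD45- libraries.

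Relative to the endothelial markers, Kdr was lower in 66cl4 tumours, by an amount that depended on the markers used. The log2 ratio of Kdr to the sum of the 12 markers was −6.26 ± 0.779 in 66cl4 and −4.15 ± 0.401 in 67NR CD45- cells (SD, n = 5), a difference of −2.10 (two-sided exact permutation test, p = 0.00794, adjusted p = 0.00952). The difference shrank to −0.742 with the sum of the 8 markers and to −0.634 with their geometric mean (exact permutation p = 0.0317 and 0.0397). In 66cl4 libraries the sum of 12 was 700 to 1305, of which the 8 gave only 54.2 to 196.6. Most of it came from the markers left out of the 8, among them Cdh5, which was not called lower. These ratios also rest on 4 to 30 counts of Kdr per 66cl4 library. For Flt1 the difference was −0.830 with the 12 markers (p = 0.0238 by the exact test, adjusted p = 0.0238), 0.269 with their geometric mean and 0.529 with the sum of the 8, so its direction was decided by the markers chosen. For Flt4 it was −2.23 with the 12 and −0.870 with the 8, values that rest on 0 to 10 counts per 66cl4 library, 1 of them at 0 and so set by the 0.5 added, and from which no difference is read.

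The balance of the 2 Vegfa receptors also differed. Flt1 exceeded Kdr in all 10 CD45- libraries, with a log2 ratio of 1.99 ± 0.618 in 66cl4 and 0.722 ± 0.231 in 67NR tumours (SD, n = 5). The libraries did not overlap, ranging from 1.10 to 2.59 and from 0.459 to 1.08, and the difference was 1.27 (two-sided exact permutation test, p = 0.00794, adjusted p = 0.00952). In TPM it was 1.33, with the same exact p. The 66cl4 libraries held 4 to 30 counts of Kdr, which limits the precision of their ratios.

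**Figure D5:**
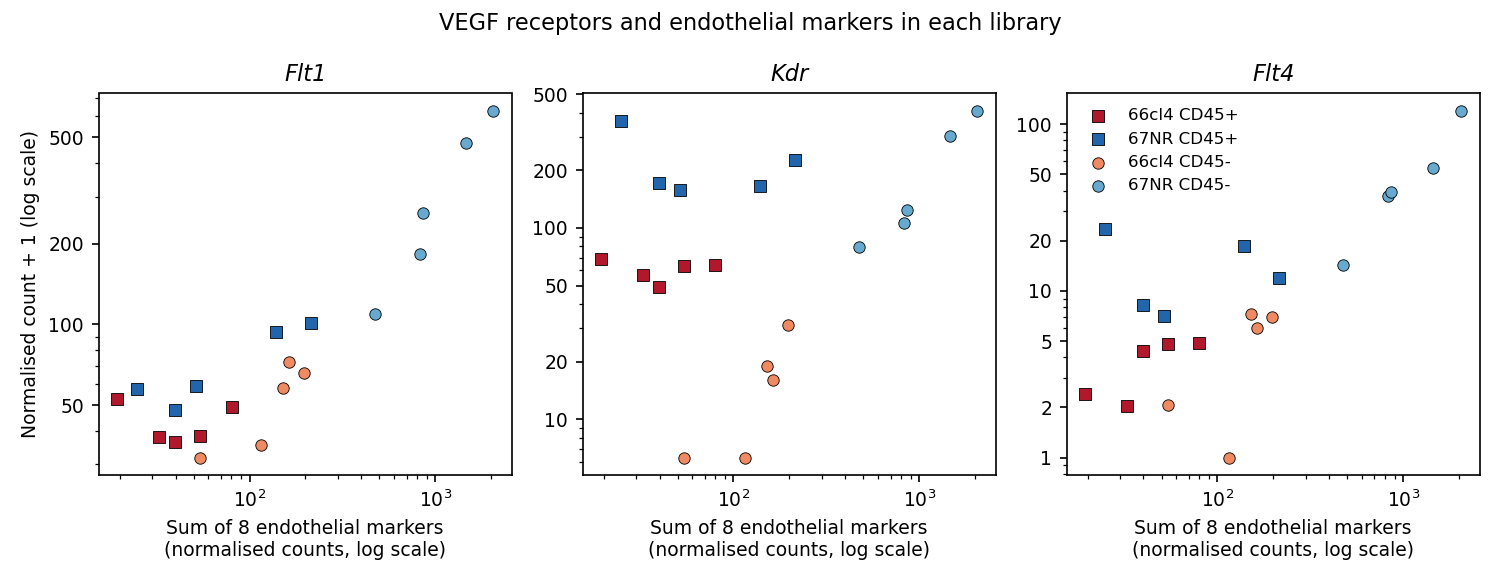
Flt1, Kdr and Flt4 (normalised count plus 1) against the sum of 8 endothelial markers in each library, both on log scales, with CD45+ cells as squares and CD45- cells as circles. In CD45- cells the receptors rise with the markers, whereas Kdr in 67NR CD45+ cells reaches 362.1 in a library whose 8 markers sum to 24.69 and whose 12 markers sum to 2923.

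In CD45+ cells Kdr was at 68.2, 62.1, 62.7, 55.8 and 48.2 normalised counts in 66cl4 and at 224.8, 163.8, 156.5, 170.2 and 362.1 in 67NR CD45+ cells. The groups did not overlap and 67NR libraries were 3.63-fold higher on average (log2 fold change −1.84, SE 0.236, adjusted p = 0.000377), a call kept in 17 of 17 alternatives. The 8 endothelial markers summed to between 19.47 and 80.03 in the former group and between 24.69 and 215.4 in the latter. The library with the highest Kdr, 67NR animal 7, had the lowest sum of 8 in its group but the highest sum of 12 (2923, against 1335 to 2295 in the others). Of the 12 markers, 6 had enough counts to be tested in CD45+ cells and 0 were called in either direction. Over all genes 11.8% were called. Pecam1 and Eng, which leukocytes also express, made up much of the sum of 12. Mast cell markers moved with Kdr between the CD45+ groups, with 4 of 5 called lower in 66cl4 tumours and a median log2 fold change of −3.40. Over all genes 6.82% were called lower, and of the 8 macrophage markers 1 was. Within 67NR, animal 7, with the highest Kdr, had a mast cell sum of 16170, inside the group's range of 14761 to 21066. Its macrophage sum was 120685, against 80824 to 82378 in the other animals. The part of either cell type in the Kdr difference was not tested.

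Comparing gates within a tumour, Kdr was higher in CD45+ than CD45- cells in 5 of 5 66cl4 animals, by 1.61-fold to 12.8-fold (log2 fold change 1.94, SE 0.377, adjusted p = 0.000493), while the sum of the 8 endothelial markers was lower, and the sum of the 12 higher, in the CD45+ library of each of these animals. The 66cl4 CD45- libraries held 4 to 30 counts of Kdr, which passed the filter through CD45+ cells and could only be called higher. In 67NR tumours Kdr was higher in the CD45+ gate in 3 animals and lower in 2, and the mean did not differ measurably (log2 fold change 0.08, SE 0.439, adjusted p = 0.89). Those 2 were animals 1 and 4, whose CD45- libraries had the most endothelial marker RNA. The tumour effect on Kdr was smaller in CD45+ than CD45- cells (interaction 1.87, SE 0.628, adjusted p = 0.0223). This call was lost with the animal as a replicate block, which pairs both gates of a mouse (1.78, adjusted p = 0.0548), without 66cl4 animals 5 and 6 (adjusted p = 0.107), without the 67NR CD45- library of animal 4 (1.36, adjusted p = 0.0653) and with no filter on low counts (adjusted p = 0.0608).

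Flt1 in CD45+ cells was 35.5 to 51.5 normalised counts (median 37.3) for 66cl4, next to 46.7 to 99.9 (median 57.9) for 67NR, overlapping groups whose difference was not called (log2 fold change −0.75, SE 0.267, adjusted p = 0.0632). Its tumour effect differed between the gates (interaction 1.90, SE 0.539, adjusted p = 0.00805). Within 67NR tumours Flt1 was lower in the CD45+ gate in 5 of 5 animals (log2 fold change −2.23, SE 0.453, adjusted p = 0.00104), and within 66cl4 tumours the gates overlapped (−0.35, SE 0.255, adjusted p = 0.23).

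Flt4 had 1 to 4 counts per 66cl4 library, against 6 to 22 per 67NR library, in CD45+ cells and was left out of that comparison for its low counts. With no filter its log2 fold change was −2.17 (SE 0.569, adjusted p = 0.0142), and with DESeq2's Wald test it was −2.21 (SE 0.664, adjusted p = 0.00667). Within 67NR tumours Flt4 was lower in the CD45+ gate (log2 fold change −2.002, SE 0.556, adjusted p = 0.0073), although in 1 of the 5 animals it was higher there. Of 6 markers of lymphatic endothelium, 4 were at or near 0 in 66cl4 CD45- cells. The sum of the 6, 1411 to 1804 normalised counts there and 7031 to 8693 for 67NR, was mostly Pdpn, which fibroblasts also express, and Lyve1, also a macrophage gene, was higher in the CD45+ gate. In 66cl4 CD45- cells Prox1, Mmrn1, Ccl21a and Reln had at most 3 counts in each library, and Prox1 had at most 5 in 67NR CD45- cells.

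Nrp1 was the most abundant of the 4 receptors in every group, at 14.3 to 43.4 TPM per library, against at most 9.23 TPM for Flt1, 6.99 TPM for Kdr and 1.94 TPM for Flt4. Its relative Nrp2, outside the 4, had a higher mean in CD45- cells (97.45 TPM in 66cl4, 38.17 TPM in 67NR). Nrp1 was 722.4 to 1390 normalised counts in 66cl4 CD45+ cells (median 884.6), 1054 to 1557 in 67NR CD45+ cells (median 1213), 853 to 1161 in 66cl4 CD45- cells (median 1051) and 623 to 998.5 in 67NR CD45- cells (median 905.3). The tumour effects were not called (log2 fold change −0.35, SE 0.183, adjusted p = 0.202 in CD45+ cells and 0.24, SE 0.123, adjusted p = 0.0963 in CD45- cells). In 67NR tumours Nrp1 was higher in the CD45+ gate in 5 of 5 animals, by 1.22-fold to 1.74-fold, with a log2 fold change of 0.54 (SE 0.136, adjusted p = 0.00412) that did not reach the threshold on size. The interaction of tumour and gate for Nrp1 was −0.58 (SE 0.243, adjusted p = 0.0584) and passed with the animal as a replicate block (−0.63, adjusted p = 0.0173).

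The comparisons of gates gave the following counts. In 66cl4 tumours 8 of the 9 genes were tested, 2 (Vegfa and Kdr) were called higher and 4 (Vegfb, Vegfc, Vegfd and Pgf) lower in CD45+ cells, where 44.4% of all genes were called, 23.9% higher and 20.5% lower. Kdr passed the filter on low counts through CD45+ cells, and Vegfd and Pgf through CD45- cells. The direction of these calls was therefore set by the filter. In 67NR tumours all 9 were tested, 0 were called higher and 6 (Vegfa, Vegfb, Vegfd, Pgf, Flt1 and Flt4) lower, against 39.8% of all genes, 20.2% higher and 19.6% lower. Flt4 passed the filter through CD45- cells there and could only be called lower. By the interaction, 5 of the 9 genes had tumour effects that differed between gates, 3 (Vegfa, Flt1 and Kdr) with a higher and 2 (Vegfb and Vegfc) with a lower effect in CD45+ cells. Over all genes 43.1% were called in that test, 21.9% higher and 21.2% lower. It did not use the pairing of gates by animal. With the animal as a replicate block Kdr was not called (1.78, adjusted p = 0.0548) and Nrp1 was (−0.63, adjusted p = 0.0173). The comparisons share libraries, so their counts are not independent of each other.

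A list of 6 genes held the angiopoietins and their Tie receptors, the other major ligand and receptor system of endothelium, with the angiopoietin-like Angptl4, which is not a Tie ligand. All 6 were called lower in 66cl4 CD45- cells (median log2 fold change −3.28), where 18.9% of all genes were called lower and 11 of 12 endothelial markers moved with them (median −3.23). The part of the endothelial markers in this was not tested. Only 3 of the 6 genes had enough counts to be tested between the gates of 66cl4 tumours. The rest passed the filter on low counts through 67NR, so their calls could only be lower. Angpt1, the ligand that activates Tek, was at 36.1 to 63.7 normalised counts for 66cl4, against 509.4 to 680.5 for 67NR (log2 fold change −3.51, SE 0.160, adjusted p = 2.54e-10). Angpt2 (−1.69, SE 0.209) and the receptors Tek (−3.18, SE 0.477) and Tie1 (−3.38, SE 0.474) were called lower too. Angpt4 had 4 to 21 counts per 66cl4 library, against 255 to 483 per 67NR library. In CD45+ cells 4 of the 6 genes were tested, and Angpt1, Angpt4 and Angptl4 were called lower in 66cl4 tumours while Angpt2 was not called (log2 fold change 0.96, SE 0.374, adjusted p = 0.0882). Over all genes 6.82% were called lower there. Angpt1 had 8 to 26 counts in the 66cl4 CD45+ libraries, so its fold rests on few counts. Markers of pericytes, which are known to make Angpt1, were mixed in CD45- cells, with 1 of 6 called higher (Pdgfrb) and 5 lower.

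Of 11 genes that VEGF induces in endothelium, all tested in CD45- cells, 6 were called lower in 66cl4 tumours (Esm1, Dll4, Aplnr, Spry4, Kcne3 and Hlx), 1 higher (Trp53i11) and 4 not (median log2 fold change −1.10), against 18.9% lower and 13.2% higher over all genes. The endothelial markers moved with them (11 of 12 lower), and their part was not tested. The endothelial tip cell genes Esm1 (−3.82, SE 0.625) and Dll4 (−3.19, SE 0.463) were lower, but several of these genes passed the filter on low counts through 67NR alone. In 66cl4 CD45- libraries Esm1 had 2 to 7 counts, Dll4 3 to 17 and Kcne3 0 to 1, so the sizes of their folds are uncertain. Trp53i11, with 3493 to 4778 normalised counts for 66cl4, against 107.4 to 312.1 for 67NR, moved in the other direction (4.50, SE 0.272). In CD45+ cells 9 were tested, of which 2 were called higher and 3 lower, against 5.01% and 6.82% of all genes. The 2 that were higher, Egr3 (1.70, SE 0.190, adjusted p = 0.000179) and Nr4a1 (1.15, SE 0.194, adjusted p = 0.0017), are immediate early transcription factors that many cell types induce.

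Of 18 signalling proteins downstream of the receptors, 17 were tested in CD45- cells and 0 were called higher and 3 lower (Fyn, Nos3 and Hspb1), with a median log2 fold change of −0.37, next to 18.9% of all genes called lower. Endothelial nitric oxide synthase, Nos3, had 0 to 11 counts per library in 66cl4 against 67 to 122 in 67NR, and so passed the filter through 67NR alone. In CD45+ cells all 18 were tested, 0 were called higher and 2 lower, the kinases Src (−1.16, SE 0.300, adjusted p = 0.0167) and Yes1 (−1.55, SE 0.424, adjusted p = 0.0228), with a median of 0.10. In that gate 6.82% of all genes were called lower.

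The genes whose log2 CPM (counts scaled to library size) were most like each member over the 20 libraries were named by Pearson's r, as a description over libraries that share 4 groups and, in pairs, an animal. Sgms1 (r = 0.947), Tnfaip2 (0.933) and Dhrs9 (0.928) were nearest to Vegfa, and with the group means removed they still had r = 0.907, 0.879 and 0.860. Sh3bgrl2 (0.992), Fzd6 (0.982) and Armt1 (0.982) were nearest to Vegfc, Osbpl5 (0.979) to Vegfb, Rhbdf1 (0.987) to Vegfd and Ift122 (0.990) to Pgf. Mmrn2 (0.939) was among the 3 nearest to Flt1, Aplnr (0.945) was nearest to Flt4 and Trim30d (0.928) to Kdr, the last falling to 0.451 without the group means. Nrp1 had no gene above 0.784 (Agtrap). Between members, Flt1 and Flt4 had r = 0.914, Flt4 and Kdr 0.747 and Flt1 and Kdr 0.596, and with the group means removed 0.758, 0.833 and 0.785. Vegfb, Vegfd and Pgf had r between 0.939 and 0.952, while Vegfa had r = −0.387 with Vegfb and −0.290 with Vegfc.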

How the data were processed

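Both gates of each tumour were profiled by RNA-seq (SENSE mRNA-Seq libraries, single reads). The authors trimmed reads with fastp, estimated transcript counts with Salmon 1.3.0 (per the submitters' processing notes) and used tximport for gene totals. These estimated counts were deposited without normalisation. The reference named for Salmon is GRCh38, a human build, although the gene identifiers are those of mouse, and the mouse build is not given in the sources used here. Reads that fit several similar genes are divided by the estimation, so related genes can exchange counts.

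Estimated counts were rounded, which changed no value by more than 0.5. Symbols matched 51492 of 52783 identifiers. Groups were compared in R 4.3.3 with edgeR 4.0.16 (TMM, filterByExpr at its limits of 10 counts per library and 15 in all, robust quasi-likelihood fit, Benjamini-Hochberg adjustment), using only the groups compared. The script was tested on simulated data. The study's thresholds were kept. Size factors were from DESeq2 1.42.0, and TPM used GENCODE M21 transcript lengths, which 1291 genes (2.58% of counts) did not have. Log2 ratios had 0.5 normalised counts added to each term. At these depths 3 counts, the limit that a count of 0 allows, were 1.07e-05 to 2.31e-05% of a library, covering counting error only. Replicates were separate animals.

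Libraries of both gates with the same tumour and number came from 1 animal, which pairs them (deviations from group means correlated at 0.0251 to 0.148 for 66cl4 animals, −0.00326 to 0.324 for 67NR animals). Between tumours libraries share only a number. Results were recomputed by the Wald test of DESeq2, with RLE factors, other filters or a replicate block, in 1 fit of the 20 libraries, without 66cl4 animals 5 and 6, and without each library in turn. Named genes were the 9 members, genes of the lists beside a result on a member, and the 3 genes most correlated with each member. The members and lists were chosen with earlier results of these data known. Plots used Python 3.11.15 with matplotlib 3.10.9.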

Additional observations from a re-analysis of the deposited data

Results flagged for a closer look

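The tumour effect (66cl4 over 67NR) differed between CD45+ and CD45- cells for 5 genes by the interaction test of edgeR. The effect in CD45+ cells minus that in CD45- cells, on the log2 scale, was 3.18 for Vegfa (SE 0.485, adjusted p = 3.57e-05), −1.02 for Vegfb (SE 0.283, adjusted p = 0.0069), −4.03 for Vegfc (SE 0.452, adjusted p = 8.23e-07), 1.90 for Flt1 (SE 0.539, adjusted p = 0.00805) and 1.87 for Kdr (SE 0.628, adjusted p = 0.0223). For Vegfa the libraries did not overlap between tumours in either gate and moved in opposite directions. For Flt1 and Kdr, endothelial markers moved with the effect in CD45- cells, and their part in the difference was not tested. With the animal as a replicate block, which pairs the gates, the Kdr interaction was not called (1.78, adjusted p = 0.0548).

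Nrp1 was 623 normalised counts in the 67NR CD45- library of animal 1, where the other libraries of the group had 893.9 to 998.5. It was 1 of 48 groups of 5 libraries examined, and chance sets apart about 1 in 20 groups.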

How the results depend on the processing

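Fold changes of the 9 genes kept their direction and side of the thresholds in 750 recomputed values, lost the call in 27, gained it in 17 and changed sign in 9, all of the last among values not called. For Nrp1 between gates in 66cl4 tumours the sign changed with RLE factors (0.00) and without the CD45+ library of animal 3, 4 or 6 (0.03 to 0.08, range −0.18 to 0.08 over all libraries left out). For Kdr between gates in 67NR tumours it changed without the CD45+ library of animal 7 (−0.12) or the CD45- library of animal 5, 6 or 7 (−0.14 to −0.04, range −0.14 to 0.47), and for the interaction of Pgf without the 67NR CD45+ library of animal 4 (range −0.63 to 0.09). The number of the 9 genes called between CD45+ groups, 6, became 2 without 66cl4 animals 5 and 6, and 3 to 6 when single libraries were left out, the lowest without 67NR CD45+ animal 4. Counts of all genes called stayed within 1.5 times in total, but those higher between gates in 66cl4 tumours went from 3562 to 5483 with no filter, and those lower between CD45+ groups from 1001 to 1525 with all 20 libraries in the fit. Relative to endothelial markers, Flt1 changed sign with the geometric mean of 12 markers (0.269), the sum of 8 (0.529) and their geometric mean (0.638), and Flt4 no longer passed under the same settings (−1.13, −0.870 and −0.762). The cause was not tested. With the animal as a replicate block the calls between gates were unchanged for the 9 genes (6 in each tumour), and of the interactions Kdr was lost and Nrp1 gained. With the number alone as a block between tumours, Vegfd (−1.35, adjusted p = 0.067) and Pgf (−1.13, adjusted p = 0.208) were no longer called in CD45+ cells. Depth limits Flt4, Kdr, Vegfd, Pgf, Flt1 and Vegfc, which had under 40 counts in some libraries.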
